A study of Homo sapiens with 4 samples.

Results

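The skipped and mutually exclusive exons of CLSTN1 (calsyntenin 1), APP (amyloid precursor protein) and APLP2 (its paralogue) were followed in U87MG cells, a human glioblastoma line. All alternative splicing events listed under these 3 gene symbols were taken, 56 of the 121269 events in the series: 8 of CLSTN1, 37 of APP and 11 of APLP2. The 3 genes were chosen because some of their exons differed in this same contrast, so the values below are a description of the chosen exons and not evidence gained independently of that choice. RNA-seq was made from 2 libraries of cells transfected with 2.5 µM RBFOXi, a decoy oligonucleotide that carries copies of the RBFOX binding motif, and 2 libraries of cells transfected with 2.5 µM SCRM, its scrambled control. The label of RBFOXi replicate 1 names the dye Cy5 on the oligonucleotide, and no other label names a dye, so the dye and the replicate cannot be told apart. All libraries come from 1 established line, and GEO's design text calls the replicates of each condition biologically independent.

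RBFOX proteins are splicing factors that bind UGCAUG, and copies in the intron after an alternative exon are known to favour its inclusion, while copies before it are known to favour skipping. Calsyntenin 1 is a transmembrane protein that links vesicles, among them vesicles with APP, to the motor kinesin. APP and APLP2 are transmembrane proteins of 1 family that are cut by secretases, and both have an alternative exon 7 that encodes a Kunitz protease inhibitor (KPI) domain.

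Inclusion was measured as PSI, the proportion spliced in, which runs from 0 (always skipped) to 1 (always included) and was computed from the inclusion and skipping counts of each event, each divided by its effective length. Delta PSI is mean PSI after RBFOXi less mean PSI in SCRM. The skipped exon events covered 28 distinct exons, of which 8 are described one by one, and all 8 are coding and have a length that is a multiple of 3. CLSTN1 exon 11 fell from nearly full inclusion to a mean PSI of 0.458. CLSTN1 exon 3 and APP exon 8 had delta PSI of -0.319 and -0.168, and the KPI exons of APP and APLP2 had -0.0113 and 0.00826. At none of these exons did the libraries of the conditions overlap, which also held for 30.8% of all tested skipped exon events.

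The sequences of the alternative exons with the largest delta PSI and of both KPI exons are given 5′ to 3′ on the strand of the gene, from the GRCh37 (hg19) genome, and capitals mark the RBFOX hexamer, TGCATG in DNA letters. The exons of CLSTN1 lie on the minus strand at chr1:9797556-9797612 (exon 11, 57 nt) and chr1:9816539-9816568 (exon 3, 30 nt). Those of APP lie on the minus strand at chr21:27369675-27369731 (exon 8, 57 nt) and chr21:27372330-27372497 (exon 7, 168 nt). Exon 7 of APLP2 lies on the plus strand at chr11:129993507-129993674 (168 nt).
CLSTN1 exon 11: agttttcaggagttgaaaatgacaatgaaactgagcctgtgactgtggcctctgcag
CLSTN1 exon 3: agagttttgaggtgacagtcaccaaagaag
APP exon 8: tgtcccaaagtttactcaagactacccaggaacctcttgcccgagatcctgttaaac
APP exon 7: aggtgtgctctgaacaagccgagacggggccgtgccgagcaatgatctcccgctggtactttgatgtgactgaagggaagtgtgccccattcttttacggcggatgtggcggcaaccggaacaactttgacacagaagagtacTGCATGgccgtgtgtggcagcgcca
APLP2 exon 7: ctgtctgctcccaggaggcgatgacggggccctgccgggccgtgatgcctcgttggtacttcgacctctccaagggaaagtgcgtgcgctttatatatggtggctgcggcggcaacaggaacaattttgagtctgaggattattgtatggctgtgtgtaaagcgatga

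Both KPI exons were 168 nt long, and 109 of their positions (64.9%) held the same base in an alignment without gaps. APP exon 7 itself held 1 copy of the hexamer, a feature of 3.37% of the 30634 tested exons, and APLP2 exon 7 held 0.

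The stretches of intron after the exons are shown because they hold the first copies of UGCAUG after the exons, counted from nucleotide 1 of the intron. The stretch of CLSTN1 exon 11 is chr1:9797266-9797355, that of APP exon 8 chr21:27369555-27369614, that of CLSTN1 exon 3 chr1:9815579-9815638, that of APP exon 7 chr21:27371920-27371979 and that of APLP2 exon 7 chr11:129994075-129994134.
After CLSTN1 exon 11: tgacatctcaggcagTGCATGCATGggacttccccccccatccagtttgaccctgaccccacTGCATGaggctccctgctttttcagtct
After APP exon 8: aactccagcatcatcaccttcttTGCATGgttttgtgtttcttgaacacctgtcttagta
After CLSTN1 exon 3: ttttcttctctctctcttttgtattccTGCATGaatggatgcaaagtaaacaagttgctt
After APP exon 7: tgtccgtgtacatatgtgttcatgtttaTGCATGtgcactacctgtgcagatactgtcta
After APLP2 exon 7: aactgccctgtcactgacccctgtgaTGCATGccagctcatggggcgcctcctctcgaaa

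Of the 8 exons, CLSTN1 exon 11 and APP exon 8 had UGCAUG within 300 nt after the exon, against 8.36% of the tested exons (each counted once per gene, on the gene's strand). CLSTN1 exon 11 was followed by 4 copies in its 1455-nt intron, at nucleotides 216, 220, 263 and 1263, the first 2 of which overlap. APP exon 8 had its first copy at nucleotide 84 of a 14884-nt intron. CLSTN1 exon 3 had 1 copy after it, at nucleotide 928 of a 1171-nt intron. The first copy lay at nucleotide 379 after APP exon 7 and at 427 after APLP2 exon 7. A copy anywhere in the downstream intron was present for 49.9% of the tested exons, so a distant copy is a common feature. In the last 300 nt upstream, where 8.16% of tested exons have a copy, 1 of the 8 exons did, APP exon 7. A match is a stretch of letters, and binding was not measured.

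**Figure D1:**
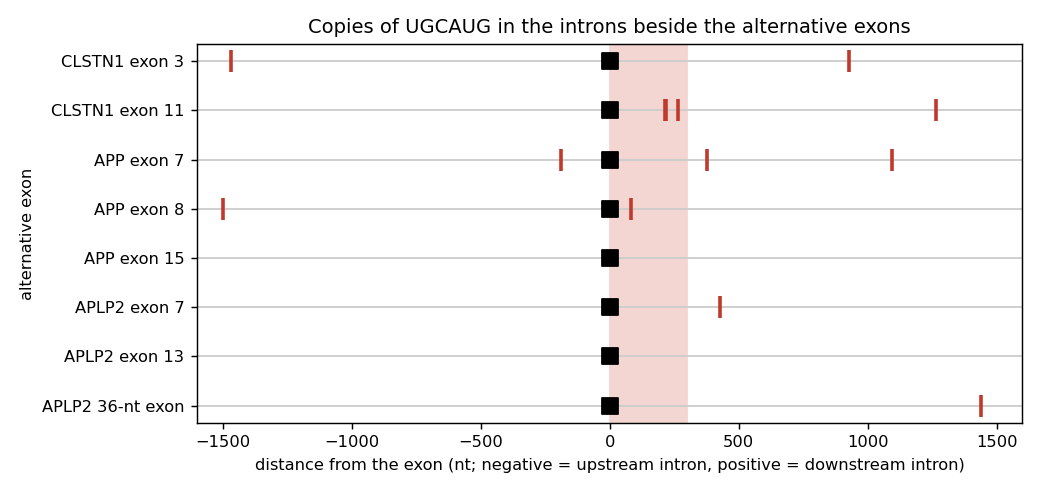
Copies of UGCAUG (red ticks) within 1600 nt of each of the 8 alternative exons (black squares, not to scale), by distance in nt into the upstream intron (negative) or the downstream intron (positive); the shaded band is the first 300 nt downstream. Copies in the band are present for CLSTN1 exon 11 and APP exon 8.

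CLSTN1 exon 11 was included in nearly all transcripts of the control cells and in fewer than 1 in 2 after RBFOXi. PSI was 0.979 and 0.973 in the SCRM libraries and 0.471 and 0.446 in the RBFOXi libraries. The conditions were far apart, and the replicates of each lay close together. Delta PSI was -0.518 (0.458 ± 0.0177 against 0.976 ± 0.00486, SD, n = 2 each), and the log2 odds of inclusion differed by -5.54 (SE 0.32). In plain counts, skipping had 490 and 417 after RBFOXi and 8 and 21 in SCRM. Inclusion had 507 and 390 counts after RBFOXi and 442 and 864 in SCRM. Of the 39615 skipped exon events that could be tested, 2 had a lower delta PSI.

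CLSTN1 exon 3 is a 30-nt exon that was included in part of the transcripts in all libraries. PSI was 0.541 and 0.351 in the SCRM libraries and 0.145 and 0.108 in the RBFOXi libraries. The conditions did not overlap, but the SCRM replicates lay farther from each other than the RBFOXi replicates did. Delta PSI was -0.319 (0.126 ± 0.026 against 0.446 ± 0.134, SD, n = 2 each), with a log2 odds difference of -2.47 (SE 0.45). The value rests in part on SCRM replicate 1, which had 145 counts at this exon against 531 to 639 in the other libraries, and without that library delta PSI was -0.224. No call was made for this exon in the fit across all events.

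Log2 odds of inclusion were fitted with limma, and a call needed an adjusted p under 0.05 (Benjamini-Hochberg over all events of a type) and a delta PSI of 0.1 or more in either direction. By this rule 27 of the 39615 tested skipped exon events (0.0682%) were called. Of the 41 skipped exon events of the 3 genes 23 passed the filter on low counts and 1 was called, CLSTN1 exon 11. It was also called in each of the other 12 settings tried. The settings without a minimum of delta PSI and with plain shares of counts reuse the adjusted p of the main fit, so they are not separate support. Because the genes were chosen on this contrast, nothing is read from the count of calls. The median delta PSI of the 23 events was -0.000324, and that of all tested events was -5.65e-05.

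**Figure D2:**
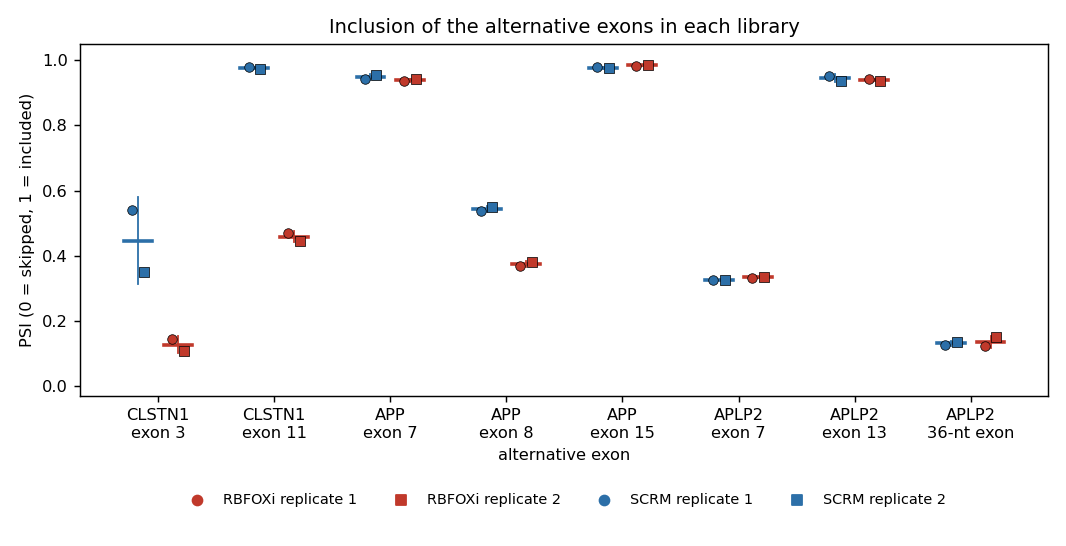
PSI (0 skipped, 1 included) of the 8 alternative exons in each of the 4 libraries, blue for SCRM and red for RBFOXi, circles for replicate 1 and squares for replicate 2; horizontal bars are means and thin vertical lines the SD (n = 2). CLSTN1 exon 11 goes from a mean of 0.976 to 0.458 and APP exon 8 from 0.543 to 0.375, while APLP2 exon 7 has 0.325 and 0.333.

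APP exon 8 follows the KPI exon, and its inclusion decides whether exon 7 is joined to exon 8 or directly to exon 9. In the event between exons 7 and 9, PSI was 0.537 and 0.549 in the SCRM libraries and 0.368 and 0.382 in the RBFOXi libraries. Both RBFOXi libraries lay below both SCRM libraries, and the replicates of each condition were close together. Delta PSI was -0.168 (0.375 ± 0.0103 against 0.543 ± 0.0085, SD, n = 2 each), and the log2 odds differed by -0.99 (SE 0.20). The event rested on 3016 to 7900 counts per library and was not called by limma, and 330 tested events had a lower delta PSI.

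A 2nd event places the same exon between exons 6 and 9. Its PSI was 0.776 and 0.817 in SCRM and 0.663 and 0.664 after RBFOXi, a delta PSI of -0.132. Both events count the reads that join exon 8 to exon 9, including those of transcripts that also hold exon 7, so they are not independent measurements.

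The counts of the single junctions of this region were obtained by subtracting the counts of events that share all other reads, and 2 ways of subtracting gave the same count in 4 of 4 libraries. The junction from exon 7 to exon 8 had 1706 and 1857 counts after RBFOXi and 1120 and 3009 in SCRM. The junction from exon 7 to exon 9 had 3966 and 3850 counts after RBFOXi and 1284 and 3270 in SCRM. Exon 7 was thus joined to exon 8, and not to exon 9, in a share of 0.301 and 0.325 after RBFOXi and of 0.466 and 0.479 in SCRM. The mean share was 0.313 ± 0.017 after RBFOXi and 0.473 ± 0.00919 in SCRM (SD, n = 2 each), a difference of -0.16 that uses no reads from inside the exon.

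Junctions that skip exon 7 had few counts in all libraries. The junction from exon 6 to exon 9, which skips both exons, had 434 and 403 counts after RBFOXi and 154 and 317 in SCRM. The junction from exon 6 to exon 8 had 20, 14, 8 and 22 counts in the same order of libraries, which was 0.709% to 1.16% of the junction counts into exon 8. Exon 8 was thus joined to the KPI exon in nearly all of its transcripts, in all 4 libraries.

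**Figure D3:**
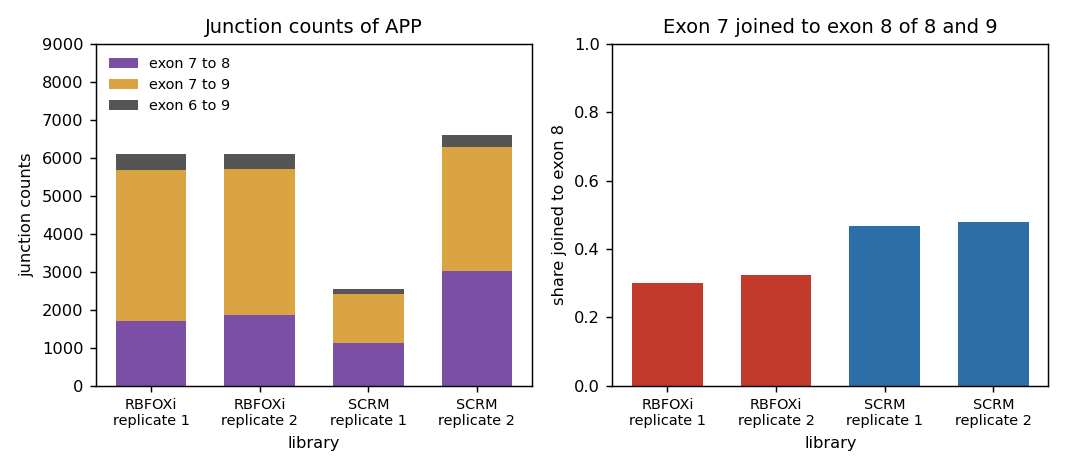
Left, counts of 3 APP junctions in each library (bars stacked, axis from 0). Right, the share of junctions from exon 7 that lead to exon 8, of those to exon 8 and exon 9, which is 0.301 and 0.325 in the RBFOXi libraries (red) and 0.466 and 0.479 in the SCRM libraries (blue).

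The KPI exon of APP was nearly always included. PSI of exon 7 was 0.942 and 0.956 in SCRM and 0.935 and 0.941 after RBFOXi, so the conditions lay side by side without overlapping. Delta PSI was -0.0113, and the 95% interval of the log2 odds difference from limma ran from -0.89 to 0.26 around -0.32. Delta PSI at this exon was -0.0184 without SCRM replicate 1 and -0.00427 without SCRM replicate 2. The KPI exon of APLP2, by contrast in level, was skipped in most transcripts, with PSI of 0.326 and 0.325 in SCRM and 0.333 and 0.334 after RBFOXi. Delta PSI was 0.00826 at this exon, with a log2 odds difference of 0.05 and an interval from -0.38 to 0.49. Both intervals include 0, and both lie above the log2 odds difference of -5.54 at CLSTN1 exon 11. The interval of APP exon 7 overlapped that of APP exon 8, -1.41 to -0.57, and the interval of APLP2 exon 7 did not.

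The tables also hold events that treat neighbouring exons as mutually exclusive. In the event of APP exon 7 against exon 8, the share of the exon 7 form was 0.825 and 0.831 in SCRM and 0.879 and 0.889 after RBFOXi, a delta PSI of 0.0567. This event is built from the same reads inside exon 8 as the events above. Exon 8 was joined to exon 7 in nearly all of its transcripts, so these exons are not alternatives to each other here. The share is not the inclusion of exon 7, which had a delta PSI of -0.0113 as a skipped exon. Of the 14 mutually exclusive events of the 3 genes 13 were tested and 0 were called by limma. In 4 the libraries did not overlap between the conditions, all 4 in APP and all with the first form higher. Apart from exon 7 against exon 8, these events pair exons that had mean PSI of 0.999 to 1 in the skipped exon events nearest in counts. By its counts, the event with a delta PSI of 0.0221 includes APP exon 15. In its most counted skipped exon event, that exon had a mean PSI of 0.98. Their values thus compare the counts over nearly always included exons and do not show a choice between them. The part of uneven coverage in them was not tested. Over all 26176 tested events of this type 0% were called, 1.51% had an unadjusted p under 0.05, and 16% had higher values without overlap. The count over all events of this type was 1400 without SCRM replicate 2, 20 without SCRM replicate 1, 15 without RBFOXi replicate 1 and 4 without RBFOXi replicate 2, and 0 with the quasi-binomial F test. The events of the 3 genes had 0 calls in each of these settings.

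The remaining 3 exons had small delta PSI. APP exon 15 (54 nt, chr21:27277336-27277389, minus strand), whose skipping creates the attachment site for chondroitin sulfate in the L-APP forms, had PSI of 0.978 and 0.975 in SCRM and 0.983 and 0.986 after RBFOXi. Its delta PSI was 0.00794, and the interval of the log2 odds difference was -0.14 to 1.34. The RBFOXi libraries lay just above the SCRM libraries.

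APLP2 exon 13 (153 nt, chr11:130005458-130005610, plus strand) had PSI of 0.953 and 0.937 in SCRM and 0.942 and 0.937 after RBFOXi. The 36-nt exon between exons 13 and 14 of APLP2 (chr11:130007151-130007186) is rarely included, and had 0.125 and 0.136 in SCRM and 0.123 and 0.149 after RBFOXi. The conditions overlapped at both exons, with delta PSI of -0.00577 and 0.00555, and the interval for the 36-nt exon ran from -0.59 to 0.72 log2 units. Neither direction held with every library left out in turn: delta PSI was 0.00241 at exon 13 without SCRM replicate 1 and -0.00772 at the 36-nt exon without RBFOXi replicate 2.

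The other 20 exons of the 3 genes were close to full inclusion, with mean PSI over the libraries of 0.984 to 1 and delta PSI from -0.00627 to 0.00153. The most counted event of 9 of these exons passed the filter on low counts. Over all 23 tested skipped exon events, the libraries of the conditions did not overlap in 7 with lower and 3 with higher inclusion, against 16.5% and 14.3% of all tested events. The event of an alternative 5′ splice site in CLSTN1 had a PSI of 0.000335 to 0.00187 and did not separate the conditions. Alternative 3′ splice sites and retained introns were listed for 0 events of these genes.

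**Figure D4:**
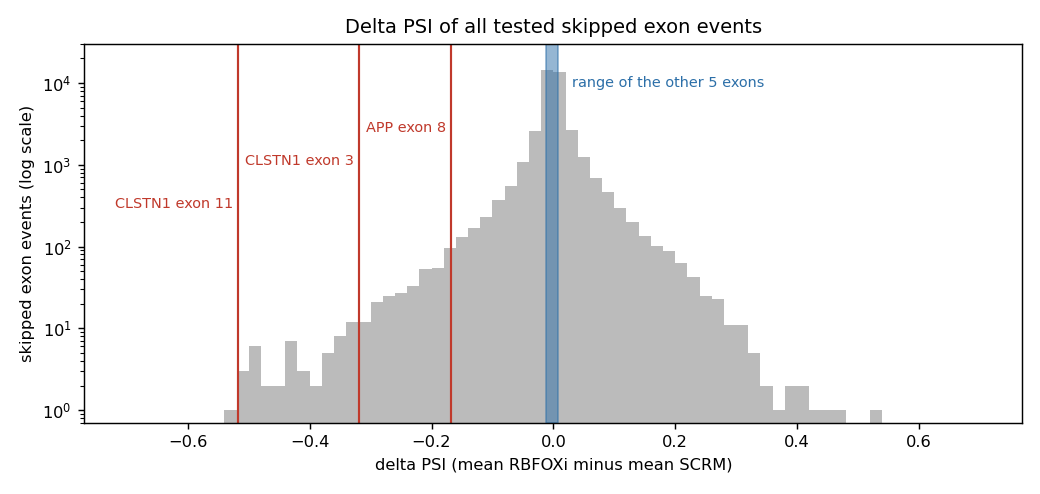
Delta PSI of the 39615 tested skipped exon events (grey, number of events on a log scale), with CLSTN1 exon 11 (-0.518), CLSTN1 exon 3 (-0.319) and APP exon 8 (-0.168) as red lines. The blue band is the range of the other 5 described exons, -0.0113 to 0.00826.

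The level of each gene was taken as the median, over its nearly always included exons, of the inclusion counts per nt of effective length per 1000000 skipped exon counts of the library. APP had 0.458 and 0.412 after RBFOXi and 0.214 and 0.444 in SCRM. APLP2 had 0.336 and 0.231 after RBFOXi and 0.189 and 0.269 in SCRM, and CLSTN1 had 0.067 and 0.0548 against 0.0345 and 0.0555. By this median SCRM replicate 1 was lowest for all 3 genes, and the other 3 libraries overlapped between the conditions. It was not lowest at CLSTN1 exon 18, with 0.109 against 0.133 and 0.103 after RBFOXi and 0.0995 in SCRM replicate 2. At APP exon 17 (0.49) and APLP2 exon 15 (0.355) it was still lowest. The median therefore does not separate a lower level of a gene from uneven counts along its transcripts. In bulk RNA, fewer cells with a transcript and less transcript per cell cannot be told apart.

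SCRM replicate 1 also stood apart along the transcripts. The level in the first of these exons was 0.166 of that in the last for CLSTN1 in this library, against 0.502 to 0.558 in the others. The ratio was 0.384 against 0.799 to 0.947 for APP and 0.219 against 0.444 to 0.514 for APLP2. The part of this unevenness in the results was not tested. Without SCRM replicate 1, delta PSI was -0.514 at CLSTN1 exon 11, -0.224 at CLSTN1 exon 3, -0.174 at APP exon 8 and -0.0184 at APP exon 7. For the other exons it was 0.00922 at APP exon 15, 0.00875 at APLP2 exon 7, 0.000291 at the 36-nt exon of APLP2 and 0.00241 at APLP2 exon 13, where the sign changed.

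**Figure D5:**
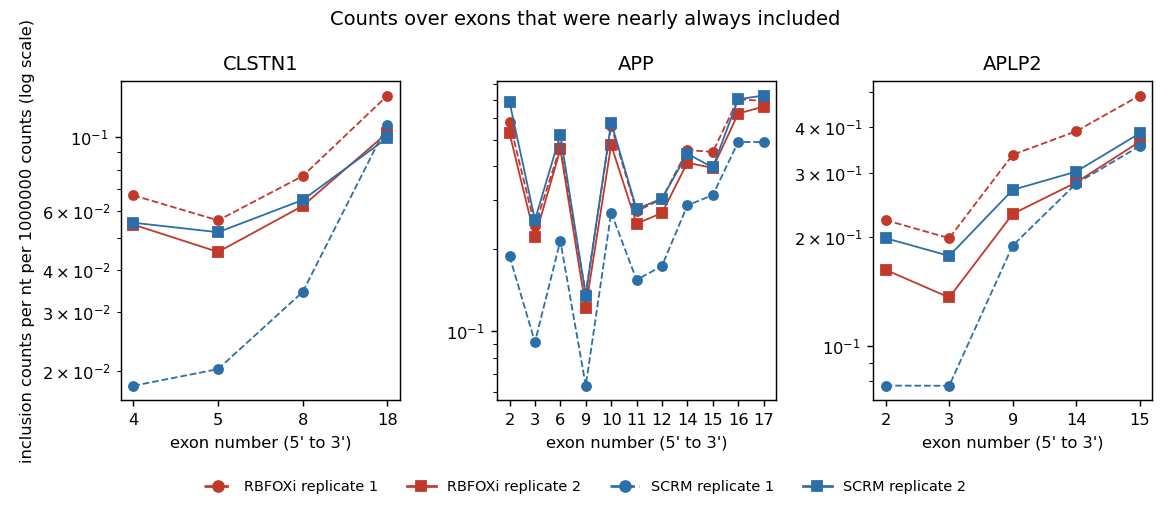
Inclusion counts per nt per 1000000 skipped exon counts (log scale) over the nearly always included exons of CLSTN1, APP and APLP2 from 5′ to 3′, in the RBFOXi (red) and SCRM (blue) libraries, dashed with circles for replicate 1 and solid with squares for replicate 2. SCRM replicate 1 is lowest toward the 5′ end of all 3 genes.

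Exons of other genes with the most similar PSI over the 4 libraries were found by the root mean square difference. For CLSTN1 exon 11 they were exons of FAM126A (0.0638), GOLIM4 (0.0673) and DIAPH1 (0.083), and 0 of 30629 exons lay within 0.05. These exons had 3, 2 and 2 copies of UGCAUG within 300 nt after the exon. For APP exon 8 the nearest exons belonged to PGF (0.0217), RGL1 (0.0302) and IFT122 (0.0404), none of them with a copy in that window, and 10 exons lay within 0.05. For APLP2 exon 7 they belonged to TMCO4 (0.0125), TMEM11 (0.0164) and KLHL2 (0.0185), with 95 exons within 0.05.

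The skipped exons of 48 other genes around APP were counted as well: secretases and their regulators, cytoplasmic adaptors, a kinesin group, a sorting group and family members. The kinesin group holds kinesin chains and MAPK8IP genes, and the sorting group holds receptors, VPS35 and SNX27. Of these genes 33 had a tested event, 169 events at 128 exons, of which 0 were called by limma against 0.0682% of all events. An unadjusted p under 0.05 was found for 5 of the 169 events, against 3.61% of all events, and the quasi-binomial F test called 1. The libraries did not overlap in 57 events (33.7%, against 30.8% of all), 36 with lower and 21 with higher inclusion. The list had a median delta PSI of -0.000397. By role, the conditions did not overlap in 26 of 82 events of the secretase group and 22 of 43 of the adaptors. They did not overlap in 8 of 29 events of the sorting group, 0 of 7 of the kinesin group and 1 of 8 of the family members.

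The largest delta PSI among those events without overlap were at 3 exons of APBB2, an adaptor that binds the cytoplasmic tail of APP. Its 63-nt exon (chr4:40937094-40937156) had PSI of 0.907 and 0.969 in SCRM and 0.686 and 0.554 after RBFOXi, with 42 to 297 counts per library. Delta PSI was -0.318 (0.62 ± 0.0934 against 0.938 ± 0.0436, SD, n = 2 each), the log2 odds differed by -3.26 (SE 0.61), and the adjusted p from limma was 0.106. The adjusted p was 0.0237 in the quasi-binomial F test fitted across all events. Its downstream intron held 2 copies of UGCAUG in the first 300 nt, the first at nucleotide 47. The 98-nt exon (delta PSI -0.187, 8 to 69 counts per library) and the 112-nt exon (delta PSI 0.102, 18 to 142 counts) of APBB2 rested on few counts, and neither was called. PSI of the 112-nt exon was 0.982 in both RBFOXi libraries and 0.789 and 0.97 in SCRM, so its delta PSI rests mostly on SCRM replicate 1.

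The line was checked against markers of the cells it could hold. Among its most counted skipped exon events per gene, the mesenchymal markers VIM and FN1 had 128266 to 185009 and 76664 to 104774 counts per library, and CD44 and NES had 18796 to 34169 and 179 to 432. The neuronal genes SYP, SNAP25 and TUBB3 had 24 to 34, 329 to 808 and 4356 to 6950 counts. CD68, taken as a marker of immune cells, had 45649 to 65957, above CD44 and NES and below VIM and FN1. These counts are not divided by the effective length of each event, so they do not rank the genes by level. By these counts CD68 does not set the line apart from immune cells, and the reason was not tested. GFAP, S100B, OLIG2, RBFOX3 and PTPRC had 0 skipped exon events listed, so these markers were not read.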

How the data were processed

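RNA-seq of 2 RBFOXi and 2 SCRM libraries was read from 5 tables of splicing events. The authors aligned reads to hg19 with STAR 2.4.2a and deposited inclusion and skipping counts per event and library from rMATS, without normalization, with effective lengths. The p-values, FDR and inclusion differences they deposited were not used. Skipped exon counts summed to 114415530 to 136097319 per library. Events share reads, so counts are not independent molecules, and the spread between replicates was used.

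PSI and log2 odds (pseudocount 0.5) were computed, and limma 3.58.1 in R 4.3.3 was fitted to all events that had 5 or more counts in each library, 20 on average and 4 of each form. limma moved the variance of each event toward a trend over all tested events of its type. Its SE, intervals and p-values thus also use the spread of other events. They come from 2 against 2 libraries and reach no further than these samples. A quasi-binomial F test was added after seeing the data. GENCODE v44lift37 gave exon numbers. Introns were read from GRCh37, where 28 of 28 exons had AG before and GT after.

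The genes, lists and tests were chosen with earlier results of these data known. Exons of the 3 genes with a mean PSI of 0.05 to 0.95, and annotated cassette exons, were named, with the 3 most similar exons for each gene and the 3 largest differences without overlap in the pathway list.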

Additional observations from a re-analysis of the deposited data

How the results depend on the processing

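Over all genes, limma called 27 skipped exon events, and the count was 1 with a pseudocount of 0.1, 44 with 1 count as the only filter, 56 with the quasi-binomial F test and 1 to 69 with 1 library left out (69 without RBFOXi replicate 1, 2 without SCRM replicate 1 and 1 without SCRM replicate 2). For CLSTN1, APP and APLP2 the count was 1, and it was 2 with a pseudocount of 1, 3 with 1 count as the only filter, 3 with the quasi-binomial F test (CLSTN1 exon 11 and both events of APP exon 8) and 1 to 2 with 1 library left out. Adding the replicate number as a block gave 119 calls over all genes and 4 in the 3 genes (CLSTN1 exons 11 and 3 and both events of APP exon 8). Same-numbered samples correlated by 0.0944 in their deviations from the group means, and no source says what a number shares. The pathway list had 0 calls, and 1 with a pseudocount of 1, with 1 count as the only filter, with the replicate block and with the quasi-binomial F test, and 0 to 1 with 1 library left out. A lone library was assumed to vary like the other group.

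CLSTN1 exon 11 was called in all 13 settings, of which plain shares and no minimum of delta PSI reuse the adjusted p of the main fit. Its delta PSI ran from -0.53 to -0.505 with 1 library left out, and was -0.483 as a plain share of inclusion counts. CLSTN1 exon 3 was called in 4 of the 13 settings and ran from -0.414 to -0.224 with 1 library left out. With the event of the next most counts, delta PSI was -0.132 for APP exon 8, 0.000245 for APP exon 7 and 0.000172 for APP exon 15. With 1 library left out, delta PSI ran from -0.0184 to -0.00427 for APP exon 7, from -0.014 to 0.00241 for APLP2 exon 13 and from -0.00772 to 0.0188 for the 36-nt exon of APLP2. With 2 replicates such a shift is always smaller than the replicate SD, and the block leaves delta PSI as it is, so neither shows stability. Over all genes, mutually exclusive events had 0 calls, and 77 with the replicate block, 2 with a pseudocount of 1 and 4 to 1400 with 1 library left out (1400 without SCRM replicate 2), with 0 in the 3 genes each time. The planned edgeR test was not run, because the deposited cells hold several libraries in 1 string. The causes were not tested.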
